A study of Mus musculus with 18 samples.

Results

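The livers of 3 mice in the group 3OFF were compared with the livers of 3 mice in the group 12ON, which makes 6 of the 18 libraries of the study. Groups were taken from the submitters' labels, and every fold change is 3OFF over 12ON unless another pair is named. All mice carried liver damage from carbon tetrachloride, a toxin that kills hepatocytes around the central vein, given into the peritoneum at 0.5 µL per g of body weight in oil. MycER, a fusion of the transcription factor MYC with the hormone-binding part of the estrogen receptor, was switched on by daily intraperitoneal tamoxifen at 1 mg. Livers of 12ON were taken at 12 days from injury with MycER active, and livers of 3OFF are labelled as 3 days from injury without it. Groups 12 (12 days, no activation), 2OFF and 7OFF (labelled as 2 and 7 days from injury without activation) were used for comparison, each with 3 mice. The name OFF may stand for days since activation ended, but earlier MycER activity in them is not described in the labels. Sex, hour of sampling, strain, the driver of MycER and any tamoxifen in group 12 are not given in the sources used here. As labelled, the day from injury and the state of MycER differ together between 3OFF and 12ON, so their parts cannot be told apart.

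MYC pairs with MAX and binds the E-box CACGTG in promoters, and genes of ribosome assembly, nucleotide synthesis and the cell cycle are among its best known targets. A fusion with the estrogen receptor domain stays in the cytoplasm until tamoxifen, after its conversion in the body, binds to it. The adult hepatocyte secretes most plasma proteins, disposes of ammonia and drugs, and turns from these tasks towards DNA synthesis when the liver regenerates.

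The 3OFF libraries held 39.1 to 56.0 M gene counts and the 12ON libraries 36.6 to 46.8 M, within the 23.1 to 75.3 M of all 18. Mitochondrial genes took 5.36% to 7.18% of the counts in 3OFF and 6.42% to 7.11% in 12ON (exact two-sided permutation test, p = 0.9, where 0.1 is the smallest that 3 against 3 can give). Hepatocyte markers were strong in all 6 libraries, for example Hnf4a at 618, 722 and 675 CPM in 3OFF and 497, 426 and 434 CPM in 12ON (CPM, each gene's counts relative to the library's total, scaled by edgeR's TMM factors). Prss1 and Cpa1, pancreas markers, were too low to be tested. Xist, made in females from the inactive X chromosome, was high in 1 library of each group used here, 3OFF replicate 3 and 12ON replicate 2 in the groups compared (0.669, 0.362 and 300.4 CPM in 3OFF and 0.388, 390.1 and 0.472 CPM in 12ON). Values without the high-Xist library of each group, which leaves 2 mice against 2, are given beside the named genes whose call they end.

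Compared with 12ON, 3OFF had 2726 higher genes (15.3%) and 3028 lower genes (17.0%) among 17789 tested, at an adjusted p under 0.05 in edgeR's quasi-likelihood test, so 32.3% were called. At least 2-fold changes were seen in 651 of the higher and 995 of the lower genes. The median log2 fold change over all genes was 0.01, a value that TMM scaling holds near 0. A shift shared by most genes would therefore not be seen. The TMM factors were 0.9386 to 0.9808 in 3OFF and 1.157 to 1.243 in 12ON. Genes whose 3 values in 3OFF all lay above those of 12ON made up 25.1% of the genes tested, and those all below made up 26.3%. Without the high-Xist library of each group 844 genes were higher and 1446 lower. Leaving out 1 library at a time gave 1528 to 2474 higher and 2180 to 2803 lower genes. The fewest came without 12ON replicate 2 (1528 and 2180), the only single omission past 1.5 times on the higher side.

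**Figure D1:**
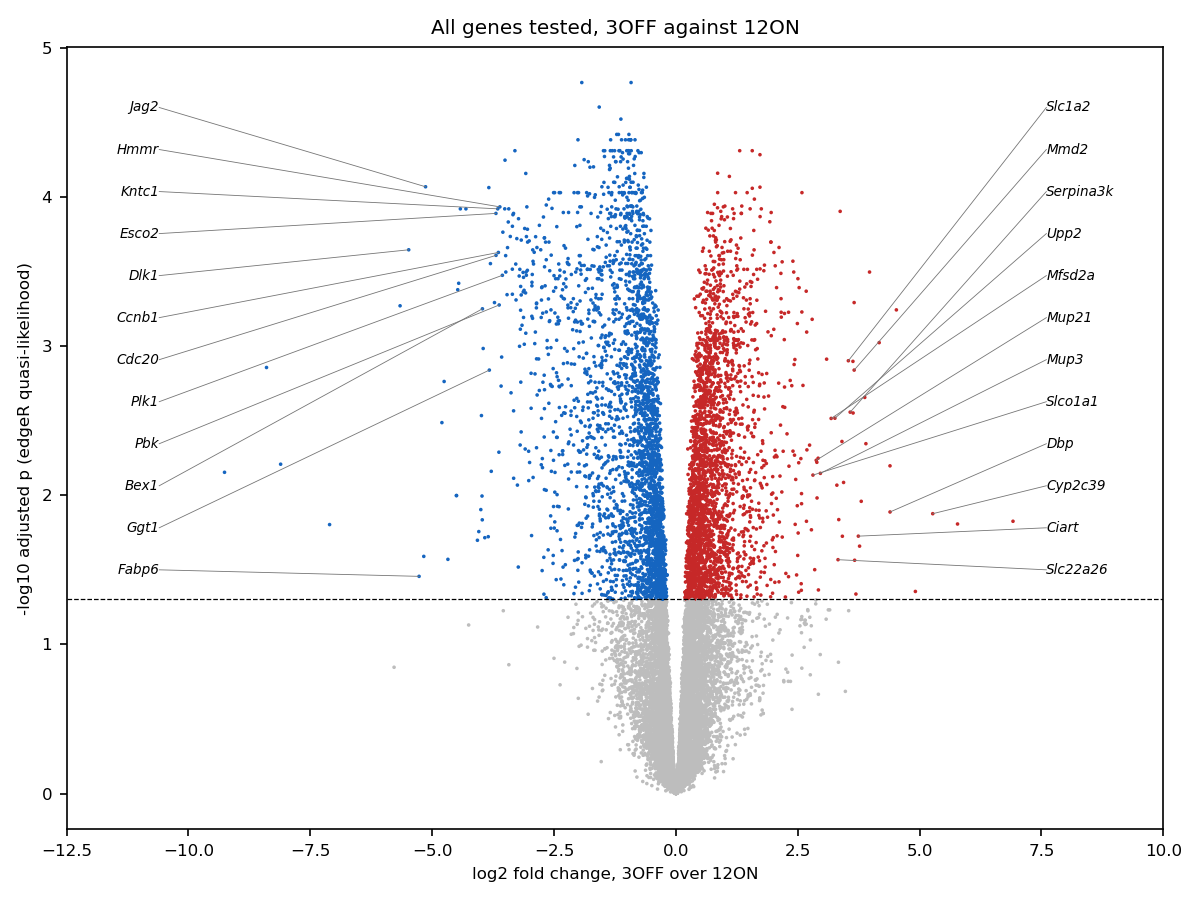
Each point is 1 of 17789 genes tested, with the log2 fold change of 3OFF over 12ON on the x axis and -log10 of the adjusted p (edgeR quasi-likelihood) on the y axis. Red points are the 2726 genes higher in 3OFF, blue points the 3028 lower, grey points those under the dashed line, which marks an adjusted p of 0.05, and the 24 genes with the highest and lowest fold changes under the naming rule carry labels.

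The 63 gene lists used here hold 1532 distinct genes that were tested, of which 341 were higher and 394 lower. Lists on ribosome assembly, nucleotide synthesis, splicing, DNA replication and mitosis had most of their tested members lower, while lists on plasma proteins, amino acid breakdown and sinusoidal endothelium had most of theirs higher. Most called genes belong to none of these lists. In bulk tissue, fewer cells of a type and less RNA per cell cannot be told apart. Each list's count should be read against the 15.3% higher and 17.0% lower among all genes.

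Promoter stretches of 3 functions are printed where they are described, those of MYC targets first since MYC acts through DNA. Promoter windows came from RefSeq (GRCm38.p6) and ran from 250 bases before to 50 bases after each start, and the motif is in capitals, 5′ to 3′ on the gene's strand. These are the canonical MYC targets with the smallest p in 3OFF against 12ON whose window holds the E-box CACGTG. Wdr43 and Exosc5 work on ribosomal RNA, Apex1 encodes a DNA repair endonuclease and Eif4a1 a helicase of translation initiation.
Wdr43 (chr17:71616185-71616244, plus strand): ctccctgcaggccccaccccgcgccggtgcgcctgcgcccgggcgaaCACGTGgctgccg
Apex1 (chr14:50924898-50924978, plus strand): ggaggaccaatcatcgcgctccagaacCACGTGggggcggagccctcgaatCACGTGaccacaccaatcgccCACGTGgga
Eif4a1 (chr11:69672580-69672639, minus strand): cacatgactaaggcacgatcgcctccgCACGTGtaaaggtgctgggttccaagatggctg
Exosc5 (chr7:25659082-25659141, plus strand): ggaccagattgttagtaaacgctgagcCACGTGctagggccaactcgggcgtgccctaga
The E-box began 18 bases after the start in Wdr43, 44 bases before it in Exosc5 and 189 bases before it in Eif4a1. Apex1 held 3 of them, at 24 bases before the start, at base 1 and at base 22. Among tested genes with a single window, 964 of 10026 (9.62%) held CACGTG, and so did 6 of 28 canonical MYC targets (21.4%), 9 of 38 genes of ribosome assembly (23.7%) and 221 of 1862 lower genes (11.9%). Genes higher in 3OFF held it in 147 of 1528 windows (9.62%). Other lists were nearer to or below the share of all genes. They were nucleotide synthesis with 4 of 28 (14.3%), mitosis with 3 of 32 (9.38%) and G1/S and replication with 2 of 29 (6.9%). A match describes the letters and shows no binding.

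Wdr43 lay at 29.9, 30.7 and 24.7 CPM in 3OFF and 47.4, 58.0 and 50.6 CPM in 12ON. Every 3OFF value was below every 12ON value, with a 1.83-fold lower mean on the fitted scale (log2 fold change -0.87 ± 0.10, adjusted p = 6.14e-05). Apex1, whose exons overlap those of Pip4p1 over 61.7% of their length so that reads are shared, lay at 28.2, 32.5 and 30.7 CPM in 3OFF and 48.7, 65.0 and 54.9 CPM in 12ON (log2 fold change -0.88 ± 0.13, adjusted p = 0.000264). Eif4a1 lay at 381, 414 and 352 CPM in 3OFF and 508, 547 and 539.9 CPM in 12ON (log2 fold change -0.48 ± 0.10, adjusted p = 0.0027). Exosc5, a subunit of the RNA exosome, stood at 18.3, 19.1 and 17.1 CPM in 3OFF and 22.1, 26.3 and 22.9 CPM in 12ON (log2 fold change -0.39 ± 0.09, adjusted p = 0.00587). Its call ended without the high-Xist library of each group, where it changed by -0.28 (adjusted p = 0.102). In none of these 4 genes did the groups overlap.

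Canonical MYC targets were lower in 3OFF in 38 of 45 tested members and higher in 1, with a median log2 fold change of -0.87. Ncl (ENSMUSG00000026234, chromosome 1, 86344719 to 86359400, minus strand, GRCm38), which encodes nucleolin, the abundant protein of the nucleolus, lay at 366, 361 and 302 CPM in 3OFF and 685, 808 and 708 CPM in 12ON. The groups were far apart, and the level was 2.14-fold lower in 3OFF (log2 fold change -1.10 ± 0.12, adjusted p = 5.04e-05). Its 3OFF level was still above the 160.2, 189 and 184 CPM of group 12 (log2 fold change 0.95 ± 0.12, adjusted p = 0.000161). Ranbp1, a regulator of nuclear transport, changed by -1.23 ± 0.14, and Rrp9, which binds the U3 small nucleolar RNA, by -1.35 ± 0.15. Npm1, nucleophosmin, lay at 237, 218 and 187 CPM in 3OFF and 320.3, 398 and 332 CPM in 12ON (log2 fold change -0.71 ± 0.11, adjusted p = 0.00028). Cad, which starts pyrimidine synthesis, stood at 29.8, 30.4 and 14.1 CPM in 3OFF and 78.1, 103 and 89.8 CPM in 12ON (log2 fold change -1.87 ± 0.36, adjusted p = 0.00143), with 3OFF replicate 3 the lowest. The member that was higher, Shmt1, a serine-glycine enzyme, changed by only 0.53, and its call ended in 3 fits with 1 library left out (adjusted p = 0.0768, 0.112 and 0.0782 without 12ON replicate 1, 12ON replicate 2 and 3OFF replicate 3, and 0.234 without the high-Xist library of each group). Fbl, the ribosomal RNA methyltransferase fibrillarin, changed by -0.82 ± 0.10. Npm1, Cad and Fbl were chosen for their function after their values were seen.

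Myc itself lay at 7.48, 5.88 and 10.9 CPM in 3OFF and 6.96, 5.14 and 6.68 CPM in 12ON, and the groups overlapped (log2 fold change 0.37 ± 0.25, adjusted p = 0.284). Esr1, the estrogen receptor, lay at 13.4, 14.4 and 23.7 CPM in 3OFF and 9.94, 11.4 and 9.05 CPM in 12ON (log2 fold change 0.76 ± 0.33, adjusted p = 0.0875). Neither gene checks the fusion, since the labels do not say which parts of each sequence it carries or from which species. Among 19 tested factors of the MYC and MAX network, 4 were higher and 3 lower. The lower ones were the cofactors Kat2a, a histone acetyltransferase (-0.97 ± 0.10), and the helicases Ruvbl1 (-1.24 ± 0.14) and Ruvbl2 (-1.16 ± 0.14). Mycl, a relative of Myc, stood at 11.1, 8.39 and 10.3 CPM in 3OFF and 5.28, 3.87 and 3.24 CPM in 12ON (log2 fold change 1.26 ± 0.27, adjusted p = 0.0028). Its 3OFF values were all above those of 12ON. Mlxipl, the carbohydrate-response factor ChREBP, was higher by 0.58 ± 0.15 on the log2 scale and its partner Mlx by 0.44 ± 0.11.

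Genes of ribosome assembly and RNA polymerase I were lower in 42 of 47 tested members (median -0.67), and 33 were called without the high-Xist library of each group. Nhp2, a core protein of the particles that modify ribosomal RNA, lay at 25.2, 28.1 and 20.7 CPM in 3OFF and 56.4, 66.0 and 60.7 CPM in 12ON. The groups did not overlap (log2 fold change -1.31 ± 0.14, adjusted p = 4.9e-05). Polr1a, the largest subunit of RNA polymerase I, stood at 29.8, 25.7 and 25.5 CPM in 3OFF and 51.5, 51.5 and 46.1 CPM in 12ON (log2 fold change -0.88 ± 0.10, adjusted p = 7.96e-05). Ebna1bp2, an assembly factor of the large subunit, changed by -0.97 ± 0.11. Nop9, the lone higher member, changed by 0.32 and lost its call in 4 fits with 1 library left out (adjusted p from 0.0522 to 0.124), and had an adjusted p = 0.214 without the high-Xist library of each group. It shares 30.9% of its exon bases with Cideb, a hepatocyte lipid droplet gene.

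Cytosolic ribosomal protein genes moved less, with 27 of 44 lower, none higher, and a median of -0.37. All 44 fold changes were negative, from -0.60 to -0.12, and 41 genes had groups that did not overlap. Rpl18 lay at 298, 278 and 222 CPM in 3OFF and 390.1, 451 and 368 CPM in 12ON. The highest 3OFF library stayed below the lowest 12ON library (log2 fold change -0.60 ± 0.12, adjusted p = 0.00189). Rpl38 changed by -0.51 ± 0.11. The count rested on single libraries: 5 members were called without 12ON replicate 2, 5 without 3OFF replicate 3, 15 without 3OFF replicate 2 and 2 without the high-Xist library of each group. Mitochondrial ribosomal protein genes, which serve the separate ribosome of that organelle, were lower in 21 of 38 (median -0.27). Mrps15 stood at 22.2, 21.8 and 21.6 CPM in 3OFF and 36.1, 34.1 and 28.4 CPM in 12ON (log2 fold change -0.59 ± 0.10, adjusted p = 0.000694).

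Translation factors were lower in 18 of 36 tested members and higher in 2, with a median of -0.30. Eif4e, the cap-binding factor, lay at 49.1, 53.5 and 42.4 CPM in 3OFF and 78.7, 97.8 and 90.8 CPM in 12ON. Both groups were tight and apart (log2 fold change -0.88 ± 0.11, adjusted p = 0.000116). Eif5a, the factor that carries hypusine, changed by -0.82 ± 0.12, Eef1e1, a scaffold of the tRNA synthetase complex, by -1.17 ± 0.12, and Eif2s1, the alpha subunit of eIF2, by -0.73 ± 0.12. Eif4a2, the close relative of Eif4a1, went the other way at 195, 173 and 187 CPM in 3OFF and 111, 119.7 and 128 CPM in 12ON (log2 fold change 0.63 ± 0.12, adjusted p = 0.000991). Without the high-Xist library of each group 8 members were lower.

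Nucleotide, one-carbon and polyamine synthesis genes were lower in 29 of 39 members (median -0.84). Adsl, which makes AMP and its precursor, lay at 22.4, 21.2 and 18.6 CPM in 3OFF and 43.1, 51.8 and 39.9 CPM in 12ON. No 3OFF value reached 12ON (log2 fold change -1.12 ± 0.11, adjusted p = 4.14e-05). Ctps, CTP synthase, stood at 14.4, 13.7 and 10.0 CPM in 3OFF and 34.5, 44.7 and 44.2 CPM in 12ON (log2 fold change -1.69 ± 0.19, adjusted p = 6.28e-05). Its level in 3OFF was 3.23-fold lower, and still higher than the 6.23, 7.32 and 6.70 CPM of group 12 (log2 fold change 0.91 ± 0.20, adjusted p = 0.00558). Dut, which keeps uracil out of DNA, changed by -1.20 ± 0.14 and Gart, an enzyme of purine synthesis, by -0.84 ± 0.10. Odc1, ornithine decarboxylase, the first step to polyamines, lay at 54.8, 66.9 and 48.3 CPM in 3OFF and 103, 154 and 113 CPM in 12ON (log2 fold change -1.12 ± 0.24, adjusted p = 0.00235), with an adjusted p = 0.059 without the high-Xist library of each group. It was chosen for its function after its values were seen.

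Splicing factors were lower in 34 of 38 members (median -0.55), 18 of them without the high-Xist library of each group. Prmt5, which methylates the Sm core proteins of splicing particles, lay at 19.6, 18.7 and 15.99 CPM in 3OFF and 36.3, 44.1 and 38.4 CPM in 12ON. The groups lay well apart (log2 fold change -1.13 ± 0.10, adjusted p = 3e-05). Snrpd1 and Snrpd2, 2 of those core proteins, changed by -1.25 ± 0.15 and -0.86 ± 0.09, and Srsf1 by -0.95 ± 0.11. Among chaperonins 14 of 20 were lower and none higher (median -0.44). Hsp90aa1, the inducible cytosolic HSP90, stood at 134, 158 and 125 CPM in 3OFF and 342, 474 and 386 CPM in 12ON (log2 fold change -1.53 ± 0.23, adjusted p = 0.000311). Hspd1, the mitochondrial chaperonin, changed by -0.73 ± 0.11 and Cct7, a subunit of the cytosolic one, by -0.67 ± 0.10.

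Cell division genes had the lowest medians of the lists. Of 42 genes of mitosis and cytokinesis 41 were lower (median -2.76) and 38 were lower without the high-Xist library of each group. Many mitotic genes carry the cell cycle homology region (CHR), TTTGAA, near their start, where the DREAM and MuvB complexes bind. The stretches below are of 4 list members whose window holds it, chosen with the rule used for the E-box but after values were seen. TTTGAA on the gene's strand or its reverse complement TTCAAA is in capitals. Hmmr encodes a spindle and hyaluronan-binding protein, Ttk a kinase of the spindle checkpoint, Cdk1 the kinase that starts mitosis and Cdc20 an activator of the anaphase-promoting complex.
Hmmr (chr11:40733408-40733467, minus strand): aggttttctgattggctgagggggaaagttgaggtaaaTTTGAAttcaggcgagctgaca
Ttk (chr9:83834659-83834718, plus strand): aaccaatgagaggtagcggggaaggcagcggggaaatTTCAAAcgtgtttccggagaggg
Cdk1 (chr10:69352951-69353010, minus strand): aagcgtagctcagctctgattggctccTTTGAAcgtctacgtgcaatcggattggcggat
Cdc20 (chr4:118437329-118437388, minus strand): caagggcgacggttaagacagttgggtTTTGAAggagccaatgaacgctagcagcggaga
The motif began 9 bases after the start in Hmmr, 8 after it in Ttk, 71 before it in Cdk1 and 18 before it in Cdc20. Of 32 list members with a single window 24 (75%) held TTTGAA on either strand, against 1304 of 10026 tested genes (13%). Of 29 genes of G1/S and replication 5 held it (17.2%). So did 297 of 1862 lower genes (16%) and 185 of 1528 higher genes (12.1%). Secreted carriers held it in 4 of 18 windows (22.2%) and complement and coagulation genes in 6 of 26 (23.1%), although most of these were higher.

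Hmmr (ENSMUSG00000020330, chromosome 11, 40701395 to 40733422, minus strand, GRCm38) lay at 3.06, 2.36 and 2.36 CPM in 3OFF and 34.7, 39.5 and 21.2 CPM in 12ON. In every 12ON library it was at least several times above any 3OFF library, and the fitted level was 12.2-fold lower in 3OFF (log2 fold change -3.61 ± 0.46, adjusted p = 0.000116). Ttk stood at 0.933, 0.856 and 1.00 CPM in 3OFF and 11.7, 12.9 and 8.02 CPM in 12ON (log2 fold change -3.55 ± 0.49, adjusted p = 0.000172). Cdk1 read 5.13, 3.63 and 4.77 CPM in 3OFF and 31.5, 35.7 and 25.4 CPM in 12ON (log2 fold change -2.77 ± 0.40, adjusted p = 0.000226). Cdc20 was found at 3.06, 2.61 and 2.82 CPM in 3OFF and 42.6, 43.3 and 23.8 CPM in 12ON (log2 fold change -3.69 ± 0.54, adjusted p = 0.000246), and 12ON replicate 3 held the lowest level of its group for Hmmr, Ttk, Cdk1 and Cdc20. Cyclin B1 (Ccnb1), the partner of Cdk1, and the kinase Plk1 changed by -3.64 ± 0.53 and -3.56 ± 0.55. Tpx2, a spindle assembly factor, changed by -3.17 ± 0.45, and Kif20a, a kinesin of cytokinesis whose exons overlap Cdc23 over 33.2% of their length, by -2.70 ± 0.38. Pttg1, securin, was the single higher member at 13.6, 13.5 and 15.2 CPM in 3OFF and 10.8, 10.3 and 11.6 CPM in 12ON (log2 fold change 0.37 ± 0.12, adjusted p = 0.0318), and its call ended in 4 fits with 1 library left out (adjusted p from 0.0515 to 0.127), and was at an adjusted p = 0.289 without the high-Xist library of each group. Summed, the list stood at 152 to 189.7 CPM in 3OFF, 720.0 to 1181 CPM in 12ON and 143 to 184 CPM in group 12.

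Genes of G1/S and DNA replication were lower in 38 of 42 members (median -1.75). Mcm7, part of the replicative helicase, lay at 17.7, 16.6 and 13.6 CPM in 3OFF and 54.3, 71.3 and 68.3 CPM in 12ON. The groups did not overlap (log2 fold change -2.02 ± 0.25, adjusted p = 9.35e-05). Cdt1, which loads that helicase, stood at 4.73, 5.23 and 5.15 CPM in 3OFF and 17.6, 23.3 and 23.4 CPM in 12ON (log2 fold change -2.09 ± 0.25, adjusted p = 9.35e-05). Rfc4, of the clamp loader, changed by -1.80 ± 0.20 and Pold1, the catalytic subunit of DNA polymerase delta, by -1.83 ± 0.22. Mcm10, another replication factor, went up at 28.4, 56.4 and 57.1 CPM in 3OFF and 16.1, 11.9 and 18.3 CPM in 12ON (log2 fold change 1.61 ± 0.50, adjusted p = 0.0231), with no overlap between groups. Its call ended in 4 fits with 1 library left out (adjusted p from 0.0568 to 0.0943), and the adjusted p was 0.198 without the high-Xist library of each group. Other cyclins, CDK inhibitors and RB family genes were lower in 9 of 24. Ccnd2, cyclin D2, lay at 10.1, 12.6 and 11.6 CPM in 3OFF and 26.1, 57.6 and 36.6 CPM in 12ON (log2 fold change -1.81 ± 0.28, adjusted p = 0.000305), and Rbl1, the pocket protein p107, changed by -1.37 ± 0.24. Rbl2, p130, the pocket protein of resting cells, was higher at 34.5, 31.4 and 42.7 CPM in 3OFF and 24.6, 18.9 and 20.2 CPM in 12ON (log2 fold change 0.77 ± 0.19, adjusted p = 0.00552), with an adjusted p = 0.116 without the high-Xist library of each group.

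p53 and its target genes were lower in 11 of 29 and higher in 3, or in 1 without 12ON replicate 2 (median -0.15). Gtse1, a microtubule protein of G2 that is also counted here, changed by -3.23 ± 0.43. Bax, which opens the outer mitochondrial membrane in apoptosis, lay at 22.0, 24.8 and 21.6 CPM in 3OFF and 47.5, 55.1 and 46.3 CPM in 12ON. Every 12ON library was well above every 3OFF library (log2 fold change -1.12 ± 0.19, adjusted p = 0.000642). Zmat3 changed by -1.22 ± 0.21 and the death receptor Tnfrsf10b by -1.42 ± 0.27. The higher members were Perp (0.50, adjusted p = 0.0033), Fas (0.51, adjusted p = 0.0176) and Ei24 (0.33, adjusted p = 0.0442). Without the high-Xist library of each group their adjusted p values were 0.0727, 0.165 and 0.26. DNA methylation and Polycomb genes were lower in 11 of 25. Uhrf1, which guides maintenance methylation, stood at 4.12, 2.68 and 3.74 CPM in 3OFF and 27.5, 41.2 and 45.5 CPM in 12ON (log2 fold change -3.44 ± 0.47, adjusted p = 0.000147). Hells, a remodeller of silent chromatin, changed by -3.35 ± 0.46, the methyltransferase Dnmt1 by -1.26 ± 0.20 and Ezh2, of Polycomb complex 2, by -1.53 ± 0.20.

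Of 20 tested fetal liver and progenitor genes 9 were lower and 1 higher (median -0.95), and 5 were lower without the high-Xist library of each group. Dlk1 (ENSMUSG00000040856, chromosome 12, 109452823 to 109463336, plus strand, GRCm38), a Notch-like surface protein of hepatoblasts, lay at 1.56, 1.66 and 0.217 CPM in 3OFF and 79.7, 38.5 and 41.2 CPM in 12ON. It was 44.7-fold lower in 3OFF, where replicate 3 was the lowest of all 6 libraries (log2 fold change -5.48 ± 0.80, adjusted p = 0.000226). Afp, alpha-fetoprotein, the albumin of the fetus, stood at 11.2, 8.16 and 6.86 CPM in 3OFF and 118, 30.1 and 65.2 CPM in 12ON. The groups did not overlap, although the 12ON libraries spread widely (log2 fold change -3.02 ± 0.72, adjusted p = 0.00507). Hmga1, a chromatin protein of growing cells, lay at 49.99, 40.7 and 21.0 CPM in 3OFF and 144, 162 and 151 CPM in 12ON (log2 fold change -2.03 ± 0.28, adjusted p = 0.000158). Its 3OFF level exceeded that of group 12 (log2 fold change 1.62 ± 0.28, adjusted p = 0.00149). Epcam, a surface protein of progenitors and bile ducts, changed by -1.44 ± 0.31.

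H19 and Igf2, a fetal pair that shares an imprinted locus, did not pass the test. H19 (ENSMUSG00000000031, chromosome 7, 142575529 to 142578143, minus strand, GRCm38), a non-coding RNA, lay at 17294, 11001 and 6921 CPM in 3OFF and 17773, 19692 and 23315 CPM in 12ON (log2 fold change -0.79 ± 0.60, adjusted p = 0.332). The 3OFF values ran below those of 12ON without overlap, since the highest, 17294 CPM, was just under the lowest 12ON value of 17773 CPM. Igf2, a fetal growth factor, lay at 5302, 6318 and 1246 CPM in 3OFF and 5023, 3698 and 5621 CPM in 12ON (log2 fold change -0.16 ± 0.60, adjusted p = 0.867). There 3OFF replicate 3 was low and the other 3OFF libraries were within or above the 12ON range, so that without it the fold change was 0.28. Both genes were at 37.5, 96.2 and 146 CPM and 12.0, 27.7 and 37.3 CPM in group 12, so the 3OFF livers stood above it by 6.98 ± 0.77, adjusted p = 7.58e-05 for H19 and 7.38 ± 0.79, adjusted p = 5.99e-05 for Igf2 on the log2 scale. At 7 days the levels were 125, 101 and 665 CPM for H19 and 100.5, 105 and 496 CPM for Igf2. Other imprinted genes were lower in 6 of 21 and higher in none. Rian and Meg3, non-coding RNAs of the Dlk1 locus, stood at 0.852, 1.27 and 0.515 CPM in 3OFF and 8.20, 5.74 and 13.6 CPM in 12ON for Rian (log2 fold change -3.36 ± 0.51, adjusted p = 0.000305) and changed by -2.70 ± 0.55 for Meg3. With 1 library left out 2 or 3 members of that list were lower in 5 of the 6 fits, namely all but the one without 3OFF replicate 1.

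Most plasma protein genes of the hepatocyte were higher in 3OFF. Albumin family and other secreted carrier genes rose in 18 of 25 tested members (median 0.92), complement and coagulation genes in 32 of 38 (median 0.73) and apolipoprotein genes in 15 of 19 (median 0.80). Without the high-Xist library of each group the counts were 7, 18 and 8. Promoters of many such genes bind HNF1, whose half-site is GTTAAT. The stretches below are of 3 higher secreted carriers that hold it on either strand (ATTAAC as its reverse complement), shown by the same rule after values were seen. Itih1 encodes a heavy chain that is linked to hyaluronan, Afm the vitamin E carrier afamin and Alb albumin.
Itih1 (chr14:30943284-30943343, minus strand): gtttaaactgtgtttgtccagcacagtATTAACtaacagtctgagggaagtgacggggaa
Afm (chr5:90518784-90518843, plus strand): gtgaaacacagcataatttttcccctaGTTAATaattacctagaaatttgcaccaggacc
Alb (chr5:90460811-90460870, plus strand): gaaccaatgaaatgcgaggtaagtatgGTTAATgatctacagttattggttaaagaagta
The half-site began 27, 138 and 32 bases before the start in Itih1, Afm and Alb. It was found in 8 of 18 secreted carrier windows (44.4%) and 8 of 26 complement and coagulation windows (30.8%), against 479 of 10026 (4.78%) over all genes tested. Among all higher genes 96 of 1528 held it (6.28%), and among all lower genes 78 of 1862 (4.19%).

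Alb (ENSMUSG00000029368, chromosome 5, 90460897 to 90476602, plus strand, GRCm38) lay at 38742, 47292 and 65533 CPM in 3OFF and 27573, 21612 and 22932 CPM in 12ON. The groups were apart, with 3OFF replicate 3 the highest (log2 fold change 1.07 ± 0.22, adjusted p = 0.00216), and all values stayed under the 95888, 88450.0 and 91320.0 CPM of group 12 (log2 fold change -0.86 ± 0.22, adjusted p = 0.015). Without the high-Xist library of each group the fold change was 0.75 and the adjusted p = 0.0672. As a share of all counts Alb took 3.80% to 6.18% in 3OFF and 2.69% to 3.19% in 12ON (exact two-sided permutation test, p = 0.1, the smallest possible). Itih1 stood at 906, 1283 and 879 CPM in 3OFF and 357, 193 and 308 CPM in 12ON (log2 fold change 1.84 ± 0.31, adjusted p = 0.000584), and Afm changed by 0.93 ± 0.16. Ttr, transthyretin, lay at 1920.5, 2456 and 3269.8 CPM in 3OFF and 1144, 1081 and 1135 CPM in 12ON (log2 fold change 1.19 ± 0.22, adjusted p = 0.000991). Afp, counted in the same list, was its only lower member.

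F5, coagulation factor V, lay at 394, 404 and 416 CPM in 3OFF and 177, 96.5 and 148 CPM in 12ON. The 3OFF livers were almost level with each other and well above 12ON (log2 fold change 1.52 ± 0.20, adjusted p = 0.00012). Proc, protein C, which switches factor V off, stood at 435, 483 and 465 CPM in 3OFF and 226, 184 and 229 CPM in 12ON (log2 fold change 1.11 ± 0.16, adjusted p = 0.000198). C8g, of the complement membrane attack complex, changed by 1.29 ± 0.21 and Serpind1, heparin cofactor II, by 0.63 ± 0.10. Every one of the 38 members had a positive fold change, from 0.15 to 1.52. Among apolipoproteins, Apoc1 lay at 1294, 1243 and 1639 CPM in 3OFF and 595, 467 and 694 CPM in 12ON (log2 fold change 1.25 ± 0.19, adjusted p = 0.000309). Lcat, which esterifies cholesterol in plasma, changed by 1.06 ± 0.16, Apoe by 0.97 ± 0.18 and Apoc3, an inhibitor of triglyceride clearance, by 0.94 ± 0.14.

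Acute phase genes were higher in 9 of 29 (median 1.01) and lower in none. That count was 14 without 12ON replicate 1, 3 without 12ON replicate 2 and 4 without 3OFF replicate 2. Serpina3k, a serine protease inhibitor, lay at 1298, 1348 and 1106 CPM in 3OFF and 184, 51.3 and 79.9 CPM in 12ON. All 3 livers of 3OFF were above 1000 CPM and all of 12ON under 200 CPM (log2 fold change 3.58 ± 0.77, adjusted p = 0.00277), and the fold change was 4.23 without 12ON replicate 1. It belongs to a family of near-identical copies, so its counts are uncertain. Saa4, a constitutive serum amyloid, stood at 442, 463 and 301 CPM in 3OFF and 173, 109 and 122 CPM in 12ON (log2 fold change 1.58 ± 0.36, adjusted p = 0.00403). Against group 12 the same list ran the other way, with 15 members lower in 3OFF and none higher (median -1.30).

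Liver transcription factors were higher in 9 of 27 members and liver nuclear receptors in 12 of 27, with none lower in either list. Cebpa, a factor of the resting hepatocyte, lay at 547, 558 and 517 CPM in 3OFF and 239.8, 215 and 259.6 CPM in 12ON. The 3OFF livers were 2.27-fold higher with no overlap (log2 fold change 1.18 ± 0.20, adjusted p = 0.000632). Hnf4a, given above, changed by 0.57 ± 0.13, with an adjusted p = 0.058 without the high-Xist library of each group. Prox1 changed by 0.68 ± 0.13. Ppara, the receptor that governs fatty acid oxidation, stood at 85.8, 98.9 and 143 CPM in 3OFF and 39.5, 32.4 and 42.0 CPM in 12ON (log2 fold change 1.53 ± 0.24, adjusted p = 0.000369). Nr1h4, the bile acid receptor FXR, lay at 135, 141 and 146 CPM in 3OFF and 84.5, 51.8 and 79.5 CPM in 12ON (log2 fold change 0.97 ± 0.17, adjusted p = 0.000812). The glucocorticoid receptor Nr3c1 changed by 0.62 ± 0.11 and Rara by 0.64 ± 0.10. For Nr1i3, the drug receptor CAR, 74.9% of exon bases also belong to Tomm40l, so its value (1.26 ± 0.21) cannot be assigned to it alone.

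Genes marking both ends of the liver lobule were higher. Perivenous genes, of the hepatocytes that carbon tetrachloride injures, were higher in 16 of 25 (median 1.18), and periportal genes in 15 of 23 with 3 lower (median 0.91). The counts were 9 and 3 without the high-Xist library of each group, and only 1 periportal gene was lower without 12ON replicate 1, 12ON replicate 2, 3OFF replicate 2 or 3OFF replicate 3. Cyp2e1 (ENSMUSG00000025479, chromosome 7, 140763739 to 140774975, plus strand, GRCm38), the enzyme that makes carbon tetrachloride toxic, lay at 2265, 1953 and 2220.3 CPM in 3OFF and 485, 160.3 and 282 CPM in 12ON. The lowest 3OFF liver was far above the highest of 12ON (log2 fold change 2.80 ± 0.48, adjusted p = 0.000661). Rgn, regucalcin, stood at 546, 665 and 663 CPM in 3OFF and 217, 128 and 221 CPM in 12ON (log2 fold change 1.73 ± 0.26, adjusted p = 0.000304). Tbx3, a transcription factor of the perivenous zone, changed by 1.44 ± 0.25. Gstm3, listed here and as an NRF2 target, was the single lower member at 103, 98.0 and 186 CPM in 3OFF and 722, 996 and 794 CPM in 12ON (log2 fold change -2.70 ± 0.38, adjusted p = 0.000188).

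On the periportal side Pigr, which carries IgA into bile, lay at 1112, 1072 and 1028 CPM in 3OFF and 266, 107 and 194 CPM in 12ON. The 3OFF livers were nearly equal and 5.67-fold above 12ON (log2 fold change 2.50 ± 0.39, adjusted p = 0.000353). Tat, tyrosine aminotransferase, changed by 1.72 ± 0.35. Sox9, a gene of ducts and of hepatocytes near them, was lower at 6.55, 4.17 and 3.42 CPM in 3OFF and 11.9, 14.99 and 9.64 CPM in 12ON (log2 fold change -1.36 ± 0.36, adjusted p = 0.00912), with an adjusted p = 0.134 without the high-Xist library of each group. Wnt pathway genes, which set the zones, were higher in 10 of 31 and lower in none, or in 5 without 12ON replicate 2. Fzd8 stood at 9.09, 6.20 and 8.05 CPM in 3OFF and 3.05, 2.66 and 3.04 CPM in 12ON (log2 fold change 1.41 ± 0.23, adjusted p = 0.000402). Fzd4 changed by 0.84 ± 0.14 and Rnf43, a brake on Wnt receptors, by 1.12 ± 0.22.

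Urea cycle and ammonia genes were higher in 11 of 13 (median 0.95) and gluconeogenesis and amino acid catabolism genes in 26 of 35 (median 1.05), or in 4 and 7 without the high-Xist library of each group. Glul, glutamine synthetase, which traps the last ammonia at the central vein, lay at 464, 659.9 and 602 CPM in 3OFF and 290.2, 176 and 265 CPM in 12ON. The groups were apart (log2 fold change 1.24 ± 0.23, adjusted p = 0.00106). Otc, ornithine transcarbamylase, stood at 411, 391 and 448 CPM in 3OFF and 233, 198 and 256 CPM in 12ON (log2 fold change 0.86 ± 0.17, adjusted p = 0.00176). Slc1a2, a glutamate carrier of perivenous cells, lay at 24.9, 63.2 and 53.8 CPM in 3OFF and 6.74, 1.69 and 3.70 CPM in 12ON (log2 fold change 3.54 ± 0.67, adjusted p = 0.00125), lowest of 3OFF in replicate 1 and lowest of 12ON in replicate 2. Fbp1, fructose bisphosphatase of gluconeogenesis, lay at 604, 899 and 1243 CPM in 3OFF and 289.8, 199 and 291 CPM in 12ON. It was 3.52-fold higher in 3OFF (log2 fold change 1.82 ± 0.27, adjusted p = 0.000286). Fah, of tyrosine breakdown, changed by 1.05 ± 0.20, Haao, of tryptophan breakdown, by 0.97 ± 0.17 and Cbs, of homocysteine removal, by 1.06 ± 0.21.

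Fuel genes were counted pathway by pathway, to be read against the 15.3% higher and 17.0% lower among all genes. Fatty acid oxidation and ketogenesis genes were higher in 15 of 35 and lower in none (median 0.45). The count was 9 without 12ON replicate 1, 6 without 12ON replicate 2, 6 without 3OFF replicate 3 and 3 without the high-Xist library of each group. Ehhadh, an enzyme of peroxisomal oxidation, stood at 436, 1082 and 1844 CPM in 3OFF and 227, 188 and 232 CPM in 12ON (log2 fold change 2.38 ± 0.48, adjusted p = 0.00184). It differed widely among the 3OFF livers, and its adjusted p was 0.0512 without the high-Xist library of each group.

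Of 27 glycolysis genes 5 were higher and 6 lower (median -0.08). The higher count was 1 without 3OFF replicate 3, 2 without 12ON replicate 2 and 3 without 12ON replicate 3 or 3OFF replicate 2, while 5 were lower in each of these fits. Eno1, the enolase of growing cells, lay at 324, 435 and 382 CPM in 3OFF and 743, 808 and 693 CPM in 12ON. The 3OFF livers were lower without overlap (log2 fold change -0.98 ± 0.18, adjusted p = 0.00114). Pfkp, a phosphofructokinase, changed by -1.07 ± 0.21, the lactate carrier Slc16a1 by -0.90 ± 0.15 and Pgam1 by -0.56 ± 0.12. Among the higher members Slc2a2, the liver glucose carrier GLUT2, stood at 351, 373 and 506 CPM in 3OFF and 244, 228 and 247 CPM in 12ON (log2 fold change 0.77 ± 0.21, adjusted p = 0.00987), with an adjusted p = 0.057 without 3OFF replicate 3 and 0.156 without the high-Xist library of each group. Fatty acid and triglyceride synthesis genes were higher in 6 of 27 and lower in 1, or higher in 3 without 12ON replicate 1, 12ON replicate 2 or 3OFF replicate 2. Srebf1, the factor that drives them, lay at 299, 277 and 304 CPM in 3OFF and 111, 146 and 158 CPM in 12ON (log2 fold change 1.08 ± 0.19, adjusted p = 0.000642). Dgat2, of the last step to triglyceride, changed by 0.84 ± 0.14.

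Cholesterol synthesis genes showed no common direction against 12ON, with 4 higher and 2 lower of 26 and a median of 0.08, which was -0.26 without the high-Xist library of each group. Without 12ON replicate 2 or 3OFF replicate 3, 2 were higher and the median was -0.06 and -0.05. Ebp, a sterol isomerase, stood at 78.1, 109.5 and 105 CPM in 3OFF and 64.8, 51.6 and 58.0 CPM in 12ON (log2 fold change 0.75 ± 0.15, adjusted p = 0.00143). Against group 12, 22 of the 26 were lower and none higher (median -1.03). Nuclear genes of the respiratory chain were higher in 3 of 39 (median -0.02), or in 1 without 12ON replicate 2. Of 13 protein genes of the mitochondrial chromosome 1 was higher, or 4 without 3OFF replicate 2.

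Bile acid enzymes and transporters were higher in 12 of 31 and lower in 1 (median 0.63). Abcg8 lay at 54.9, 70.3 and 93.0 CPM in 3OFF and 17.8, 19.1 and 12.0 CPM in 12ON, and Abcg5, its partner in the pump that sends sterols into bile, lay at 55.3, 76.8 and 115 CPM in 3OFF and 19.6, 23.7 and 17.9 CPM in 12ON. Both were higher in each 3OFF liver than in any 12ON liver (Abcg8 log2 fold change 2.16 ± 0.37, adjusted p = 0.000593; Abcg5 log2 fold change 2.01 ± 0.36, adjusted p = 0.000771). Slco1b2, which takes up bile acids and drugs from blood, changed by 1.28 ± 0.23. Slc51b, a subunit of the basolateral bile acid exporter, was the lower member at 7.81, 13.3 and 9.70 CPM in 3OFF and 18.6, 34.2 and 24.6 CPM in 12ON (log2 fold change -1.33 ± 0.30, adjusted p = 0.00356), with an adjusted p = 0.0693 without the high-Xist library of each group.

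Cytochrome P450 genes of families 1 to 4 were higher in 16 of 36 and lower in 2 (median 0.99), or higher in 9 without 12ON replicate 2. Cyp2d22 stood at 252, 242 and 242 CPM in 3OFF and 116, 69.9 and 107 CPM in 12ON. All 3OFF livers were near 250 CPM and all 12ON livers under 120 CPM (log2 fold change 1.33 ± 0.19, adjusted p = 0.000188). Cyp2j5 changed by 1.00 ± 0.14 and Cyp2d10 by 1.24 ± 0.20. Cyp2c55 lay at 3.00, 0.951 and 3.52 CPM in 3OFF and 18.8, 34.7 and 28.2 CPM in 12ON (log2 fold change -3.46 ± 0.57, adjusted p = 0.000452). Cyp2b10, a target of CAR, also went down, at 0.466, 0.209 and 0.976 CPM in 3OFF and 5.89, 8.49 and 1.79 CPM in 12ON (log2 fold change -3.33 ± 0.72, adjusted p = 0.00272), and by -3.99 without 3OFF replicate 3. UDP-glucuronosyl and sulfotransferase genes were higher in 14 of 25, or in 3 without the high-Xist library of each group. Ugt3a1 changed by 2.53 ± 0.41, Ugt3a2 by 2.58 ± 0.44 and Ugt2a3 by 1.66 ± 0.28. Ugdh, which makes the UDP-glucuronate they use, was lower at 122, 126 and 175 CPM in 3OFF and 310.5, 299 and 323 CPM in 12ON (log2 fold change -1.14 ± 0.24, adjusted p = 0.00226).

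Glutathione transferases and NRF2 targets were lower in 13 of 33 and higher in 3 (median -0.38), with 7 lower without 12ON replicate 2 and 8 without 3OFF replicate 2. Gstm3, given above, fell by 2.70 on the log2 scale. Slc7a11, the cystine carrier that feeds glutathione synthesis, lay at 4.68, 5.77 and 3.96 CPM in 3OFF and 12.8, 17.7 and 12.2 CPM in 12ON. No 3OFF liver came near the lowest of 12ON (log2 fold change -1.56 ± 0.24, adjusted p = 0.000305). Tkt, of the pentose phosphate pathway, changed by -0.68 ± 0.09 and Gsr, glutathione reductase, by -0.88 ± 0.14. The higher members included the mitochondrial and peroxisomal transferase Gstk1 at 72.5, 78.5 and 82.1 CPM in 3OFF and 38.0, 37.2 and 42.5 CPM in 12ON (log2 fold change 0.98 ± 0.16, adjusted p = 0.000394). Iron genes were higher in 8 of 21 and lower in 1. Tfr2, the iron sensor of hepatocytes, lay at 476, 518 and 415 CPM in 3OFF and 270.4, 162 and 216 CPM in 12ON (log2 fold change 1.12 ± 0.23, adjusted p = 0.00211). Tmprss6, which restrains hepcidin, changed by 0.71 ± 0.13 and Hfe by 0.51 ± 0.10.

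Growth hormone and IGF1 axis genes were higher in 6 of 22 and lower in none (median 0.37). Igf1, the hormone the liver releases in response, lay at 434, 461 and 487 CPM in 3OFF and 181, 128 and 216 CPM in 12ON. The groups were apart by 2.63-fold (log2 fold change 1.40 ± 0.24, adjusted p = 0.000562). Ghr, the growth hormone receptor, stood at 246, 290.2 and 399.8 CPM in 3OFF and 121, 68.9 and 124 CPM in 12ON (log2 fold change 1.58 ± 0.27, adjusted p = 0.000595). Igfbp4 changed by 0.93 ± 0.19. Among receptors and ligands of regeneration 5 of 32 were higher and 2 lower. Lifr, the receptor for leukemia inhibitory factor, lay at 118, 208 and 178 CPM in 3OFF and 48.4, 36.1 and 45.9 CPM in 12ON (log2 fold change 1.95 ± 0.28, adjusted p = 0.000201). Met, the receptor of hepatocyte growth factor, changed by 0.57 ± 0.13, with an adjusted p = 0.0762 without the high-Xist library of each group. Ankrd1, a target of YAP, was near the lower limit of detection at 0.304, 0.228 and 0.0542 CPM in 3OFF and 0.942, 0.879 and 1.02 CPM in 12ON (log2 fold change -2.21 ± 0.51, adjusted p = 0.00451).

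Sex-biased liver genes had a median of 1.80, the highest of the lists, with 6 of 25 higher and none lower, and with 1 higher without the high-Xist library of each group. With DESeq2 or a term for high Xist 11 were higher, with the replicate block 10, and in the fit of the 2 groups alone 12 of 23. Each group held 1 library of high Xist. Mup3, of the major urinary proteins, lay at 511, 808 and 601 CPM in 3OFF and 136, 15.6 and 94.5 CPM in 12ON. The 3OFF livers were above all of 12ON, where replicate 2, of high Xist, was lowest (log2 fold change 2.96 ± 0.75, adjusted p = 0.00713). The Mup cluster holds almost identical genes, so its reads may be divided between them. Slco1a1, a male-biased organic anion carrier, stood at 49.4, 64.5 and 147 CPM in 3OFF and 20.2, 3.67 and 13.3 CPM in 12ON (log2 fold change 2.81 ± 0.71, adjusted p = 0.00732), and its fold change was 2.20 without 3OFF replicate 3 and 1.75, adjusted p = 0.119, without the high-Xist library of each group. Cyp2a4, a female-biased enzyme, lay at 57.8, 169.6 and 463 CPM in 3OFF and 62.7, 15.1 and 25.3 CPM in 12ON, where 3OFF replicate 3 was the highest and replicate 1 overlapped with 12ON (log2 fold change 2.74 ± 0.64, adjusted p = 0.00461). Its fold change was 1.73 without 3OFF replicate 3, 3.49 without 12ON replicate 1 and 1.35, adjusted p = 0.125, without the high-Xist library of each group. The part of sex in these values was not tested.

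Clock genes and their direct outputs were higher in 12 of 20 and lower in none (median 0.99). The count was 6 without 12ON replicate 2, 7 without 12ON replicate 3, 7 without 3OFF replicate 3 and 3 without the high-Xist library of each group. Per2, a repressor of the clock, lay at 21.7, 22.0 and 34.6 CPM in 3OFF and 5.56, 5.47 and 6.06 CPM in 12ON. The 12ON livers were close to each other and all 3OFF livers were above them (log2 fold change 2.19 ± 0.47, adjusted p = 0.00255). Cry2, its partner, stood at 38.4, 35.8 and 49.7 CPM in 3OFF and 20.6, 16.1 and 17.4 CPM in 12ON (log2 fold change 1.19 ± 0.22, adjusted p = 0.00102). Bhlhe40, another repressor, changed by 1.49 ± 0.30. Dbp, the output factor with the widest daily swing in liver, lay at 70.1, 102 and 189 CPM in 3OFF and 6.02, 5.30 and 5.85 CPM in 12ON (log2 fold change 4.39 ± 1.23, adjusted p = 0.0129), and its adjusted p was 0.0547 without 12ON replicate 2 and 0.115 without the high-Xist library of each group. Arntl, which drives the clock and peaks opposite to Dbp, lay at 9.71, 4.40 and 1.52 CPM in 3OFF and 12.9, 13.6 and 15.4 CPM in 12ON (log2 fold change -1.41 ± 0.64, adjusted p = 0.105) and was chosen after its values were seen. The hour of sampling is not known and its part was not tested.

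Immediate early genes were higher in 5 of 26 and lower in 2. Dusp1, a phosphatase of stress kinases, lay at 45.0, 86.7 and 44.2 CPM in 3OFF and 24.3, 11.6 and 16.5 CPM in 12ON. All 3OFF values exceeded those of 12ON (log2 fold change 1.75 ± 0.41, adjusted p = 0.00507). Klf4 changed by 1.12 ± 0.28 and Ier5 by -1.17 ± 0.24. The number higher was 3 without 12ON replicate 2, 2 without 12ON replicate 3 and 2 without 3OFF replicate 2. Amino acid transporters were higher in 11 of 28 and lower in 4, with 6 or 7 higher when any 1 of 12ON replicates 1, 2 and 3 or 3OFF replicate 2 was left out. Slc38a3, the hepatocyte glutamine carrier, stood at 929.6, 1037 and 1065 CPM in 3OFF and 552, 428 and 424 CPM in 12ON (log2 fold change 1.11 ± 0.24, adjusted p = 0.00269). Lower were Slc7a1, which imports arginine, at 8.94, 9.29 and 4.39 CPM in 3OFF and 22.9, 22.2 and 18.7 CPM in 12ON (log2 fold change -1.49 ± 0.23, adjusted p = 0.000294), and Slc7a5, the leucine carrier, with a change of -1.18 ± 0.24. Unfolded protein response genes were higher in 3 of 29 and lower in 1. Herpud1, of protein disposal from the endoplasmic reticulum, lay at 370.4, 378 and 401 CPM in 3OFF and 152, 142 and 141 CPM in 12ON (log2 fold change 1.40 ± 0.37, adjusted p = 0.00912), with an adjusted p = 0.0816 without the high-Xist library of each group.

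Among cells other than hepatocytes, sinusoidal endothelial and vascular markers were higher in 19 of 23 tested members (median 0.58), or in 12 without 12ON replicate 1, 10 without 3OFF replicate 3 and 4 without the high-Xist library of each group. Stab2 (ENSMUSG00000035459, chromosome 10, 86841198 to 87008025, minus strand, GRCm38), a scavenger receptor of these cells, lay at 79.1, 75.5 and 74.3 CPM in 3OFF and 43.7, 37.0 and 46.4 CPM in 12ON. The 3OFF livers spread little and lay above 12ON (log2 fold change 0.85 ± 0.15, adjusted p = 0.000905). Flt4, the receptor VEGFR3, stood at 33.1, 68.6 and 49.0 CPM in 3OFF and 20.6, 20.2 and 19.3 CPM in 12ON (log2 fold change 1.32 ± 0.26, adjusted p = 0.00148). Oit3 changed by 0.80 ± 0.15 and Ptprb by 0.65 ± 0.13. The summed level of the list was 757 to 938 CPM in 3OFF, 549 to 584 CPM in 12ON and 972 to 1158 CPM in group 12.

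Kupffer cell markers were higher in 7 of 18, or in 2 to 4 without 12ON replicate 2, 12ON replicate 3, 3OFF replicate 2 or 3OFF replicate 3. The count was 10 without 12ON replicate 1 and 9 without 3OFF replicate 1. All 18 fold changes were positive, from 0.29 to 1.88 (median 0.48). Timd4 changed by 1.38 (adjusted p = 0.01015) and Spic by 0.64 (adjusted p = 0.0209). Without the high-Xist library of each group their adjusted p values were 0.162 and 0.322. Clec4f, a defining marker, lay at 204, 310.1 and 332 CPM in 3OFF and 233, 197 and 171 CPM in 12ON, and the groups overlapped (log2 fold change 0.49 ± 0.20, adjusted p = 0.0747), while without 3OFF replicate 1 the adjusted p was 0.0188. The list summed to 2040.0 to 2775 CPM in 3OFF and 1471 to 2032 CPM in 12ON. Interferon response and antigen presentation genes were higher in 15 of 35 and lower in none (median 0.47), or in 9 without 12ON replicate 2 and 4 without the high-Xist library of each group. Iigp1, an interferon-induced GTPase, lay at 339, 370.2 and 363 CPM in 3OFF and 178, 153 and 212 CPM in 12ON. The groups did not overlap (log2 fold change 0.98 ± 0.15, adjusted p = 0.000263). B2m, the light chain of MHC class I, changed by 0.87 ± 0.17, H2-K1, a heavy chain, by 1.10 ± 0.22 and Psmb8, of the immunoproteasome, by 0.84 ± 0.16. Against group 12, 12 of these 35 were lower in 3OFF and none higher.

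Monocyte and scar macrophage markers had 3 higher and 3 lower of 28, with none higher without 12ON replicate 2 and 1 without 12ON replicate 3 or 3OFF replicate 3. Spp1, osteopontin, was among the lower at 68.6, 69.6 and 59.1 CPM in 3OFF and 154, 150.1 and 172 CPM in 12ON (log2 fold change -1.27 ± 0.34, adjusted p = 0.0109), with an adjusted p = 0.0816 without the high-Xist library of each group. Cd9 (-0.65) and Cd63 (-0.89) were also lower. The higher ones were Mrc1 (0.67, adjusted p = 0.0086), Arg1 (0.91, adjusted p = 0.0177) and Adgre1 (0.62, adjusted p = 0.046). Without the high-Xist library of each group the adjusted p values of Cd9, Cd63, Mrc1, Arg1 and Adgre1 were 0.071, 0.0797, 0.123, 0.183 and 0.246. None of 15 neutrophil or 20 T and NK cell markers passed edgeR's test. Without 3OFF replicate 1, however, 4 neutrophil markers were lower and their median went from 0.17 to -1.02, and without 12ON replicate 3, 2 T and NK cell markers were higher. Neutrophil markers summed to 268 to 1547 CPM in 3OFF and 546 to 967 CPM in 12ON, and S100a8, their most familiar marker, lay at 189.7, 47.2 and 31.0 CPM in 3OFF and 78.3, 67.0 and 93.4 CPM in 12ON, highest in 3OFF replicate 1. T and NK cell markers summed to only 18.7 to 22.9 CPM and 17.1 to 19.7 CPM. B and plasma cell markers were higher in 4 of 12, or in 1 or 2 without 12ON replicate 2, 12ON replicate 3, 3OFF replicate 2 or 3OFF replicate 3. Cd79b, of the B cell receptor, lay at 0.750, 1.26 and 0.949 CPM in 3OFF and 0.369, 0.264 and 0.283 CPM in 12ON (log2 fold change 1.68 ± 0.40, adjusted p = 0.00535), with an adjusted p = 0.058 without the high-Xist library of each group. Chemokine and cytokine genes were higher in 5 of 30 and lower in 1, or higher in 3 without 3OFF replicate 2. Il1b lay at 10.6, 31.3 and 8.02 CPM in 3OFF and 6.02, 3.80 and 4.41 CPM in 12ON (log2 fold change 1.81 ± 0.46, adjusted p = 0.00762), and without 3OFF replicate 2, its highest library, the fold change was 0.98 and the adjusted p = 0.0699. MHC class II and dendritic cell genes were higher in 1 of 15, and erythroid and platelet markers in none of 15. Of 10 tested markers of mesothelium and other organs 2 were higher and 2 lower. None was higher without 12ON replicate 1, 12ON replicate 2 or 3OFF replicate 3. Msln, of mesothelium, changed by 1.44 (adjusted p = 0.0319), with an adjusted p = 0.56 without the high-Xist library of each group. The lower members were the keratins Krt8 (-1.18, adjusted p = 0.0031) and Krt18 (-0.81, adjusted p = 0.02). Without the high-Xist library of each group their adjusted p values were 0.0574 and 0.135.

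Collagen and matrix genes were lower in 11 of 33 and higher in 2 (median -0.45). The number lower was 7, 6 and 7 without 12ON replicates 1, 2 and 3, 6 without 3OFF replicate 2 and 4 without 3OFF replicate 3. Eln, elastin, lay at 12.7, 7.23 and 10.1 CPM in 3OFF and 42.5, 30.3 and 39.7 CPM in 12ON. All 12ON livers were well above 3OFF (log2 fold change -1.90 ± 0.41, adjusted p = 0.00257). Lamc1, a laminin chain of basement membrane, changed by -0.60 ± 0.15. Col1a1, the main fibrillar collagen, stood at 86.8, 47.3 and 54.2 CPM in 3OFF and 121, 119 and 139 CPM in 12ON (log2 fold change -1.01 ± 0.32, adjusted p = 0.0242), and was not called in 4 fits with 1 library left out (adjusted p from 0.0507 to 0.0981), nor without the high-Xist library of each group (0.138). It was chosen after its values were seen. Fn1, fibronectin, which hepatocytes also secrete, was higher at 1643, 1599 and 1138 CPM in 3OFF and 958, 641 and 742 CPM in 12ON (log2 fold change 0.90 ± 0.20, adjusted p = 0.00334). Stellate cell and myofibroblast markers had 2 higher and 2 lower of 26. None was higher without 12ON replicate 1, 12ON replicate 3 or 3OFF replicate 2, and none lower without 12ON replicate 2 or 3OFF replicate 1. Their retinol-storing marker Lrat lay at 20.4, 19.1 and 23.3 CPM in 3OFF and 21.3, 20.4 and 22.8 CPM in 12ON (log2 fold change -0.04 ± 0.15, adjusted p = 0.864). The higher stellate markers were Colec11 (0.44, adjusted p = 0.0167) and Tcf21 (0.47, adjusted p = 0.0467). The lower ones were Acta2 (-0.83, adjusted p = 0.0218) and Ngfr (-0.82, adjusted p = 0.0309). Without the high-Xist library of each group their adjusted p values were 0.0932, 0.0696, 0.266 and 0.199. Mmp13 and Mmp7 were the 2 lower of 22 metalloproteinases and TIMPs, with changes of -1.94 ± 0.43 and -2.44 ± 0.48.

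Cholangiocyte and ductular markers were lower in 12 of 21 and higher in 2 (median -1.11), and 8 were lower without the high-Xist library of each group. Krt19, a keratin that defines bile ducts, lay at 2.35, 1.67 and 2.60 CPM in 3OFF and 6.24, 7.54 and 5.19 CPM in 12ON. The groups did not overlap (log2 fold change -1.52 ± 0.35, adjusted p = 0.0041). Krt7 stood at 1.83, 1.27 and 1.44 CPM in 3OFF and 4.06, 3.94 and 3.73 CPM in 12ON (log2 fold change -1.37 ± 0.25, adjusted p = 0.000991). Bicc1, an RNA-binding protein of ducts, changed by -1.61 ± 0.34. Of the Notch pathway, 3 of 21 members were lower and 1 higher. Jag2 (ENSMUSG00000002799, chromosome 12, 112908590 to 112929495, minus strand, GRCm38), a Notch ligand, lay at 0.994, 0.590 and 0.136 CPM in 3OFF and 20.2, 27.5 and 15.2 CPM in 12ON. It was 35.2-fold lower in 3OFF (log2 fold change -5.14 ± 0.61, adjusted p = 8.54e-05), and its log2 fold change was -5.75 without 3OFF replicate 1 and -4.50 without the high-Xist library of each group. Notch1 changed by -0.58 ± 0.12. The summed level of the ductular markers was 433 to 470.2 CPM in 3OFF and 583 to 641 CPM in 12ON, and the part of cell numbers was not tested.

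Among the 12 genes with the highest fold changes by the naming rule, 4 lost their call when 1 library was left out. They were Cyp2c39, an arachidonate P450, at 151, 165 and 193 CPM in 3OFF and 5.71, 2.73 and 4.73 CPM in 12ON (log2 fold change 5.27 ± 1.48, adjusted p = 0.0133, adjusted p = 0.061 without 12ON replicate 2 and 0.102 without the high-Xist library of each group), Dbp, Ciart and Slc22a26. Ciart, a clock repressor, changed by 3.74 ± 1.12 (adjusted p from 0.0528 to 0.0712 in 4 such fits and 0.143 without the high-Xist library of each group) and Slc22a26, an anion carrier, by 3.33 ± 1.07 (0.0641 to 0.101 in 4 fits and 0.116 without the high-Xist library of each group). Mmd2, a membrane protein of the PAQR family, lay at 47.1, 122 and 122 CPM in 3OFF and 11.4, 3.43 and 8.13 CPM in 12ON. It was higher in each 3OFF liver, with replicate 1 the lowest of them (log2 fold change 3.66 ± 0.71, adjusted p = 0.00145). Upp2, uridine phosphorylase of liver, stood at 254, 220.5 and 476 CPM in 3OFF and 52.4, 16.2 and 30.4 CPM in 12ON (log2 fold change 3.26 ± 0.71, adjusted p = 0.00304), with an adjusted p = 0.0599 without the high-Xist library of each group. Mfsd2a, a carrier of lysophospholipids that fasting induces, lay at 24.3, 44.2 and 95.7 CPM in 3OFF and 2.99, 7.94 and 7.15 CPM in 12ON (log2 fold change 3.18 ± 0.70, adjusted p = 0.00305) and had a fold change of 2.51 without 3OFF replicate 3. Mup21 changed by 2.88 ± 0.70, or by 3.50 without 12ON replicate 1, with an adjusted p = 0.0509 without the high-Xist library of each group. Serpina3k, Slc1a2, Mup3 and Slco1a1, described above, complete the 12.

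At the other end stood Dlk1, Jag2, Cdc20, Ccnb1, Hmmr and Plk1, given above, and 6 more. Fabp6, a bile acid binding protein of the ileum, lay at 0.689, 0.0571 and 0.0271 CPM in 3OFF and 3.69, 20.1 and 7.73 CPM in 12ON (log2 fold change -5.27 ± 1.80, adjusted p = 0.035), an uncertain value that was -7.79 without 3OFF replicate 1 and lost its call in 3 fits with 1 library left out (adjusted p from 0.107 to 0.110, and 0.237 without the high-Xist library of each group). Bex1, a brain-expressed adaptor gene on the X chromosome, stood at 1.38, 0.647 and 0.352 CPM in 3OFF and 14.96, 6.68 and 16.4 CPM in 12ON. The groups were apart (log2 fold change -3.97 ± 0.67, adjusted p = 0.000562), and the change was -4.62 without 3OFF replicate 1. Ggt1, gamma-glutamyl transferase, a marker of fetal hepatocytes and ducts, lay at 1.12, 0.495 and 0.163 CPM in 3OFF and 11.9, 8.44 and 5.55 CPM in 12ON (log2 fold change -3.83 ± 0.75, adjusted p = 0.00145), or -4.64 without 3OFF replicate 1. Esco2, of sister chromatid cohesion, changed by -3.69 ± 0.49, Kntc1, of the kinetochore, by -3.66 ± 0.47 and Pbk, a mitotic kinase, by -3.63 ± 0.61.

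3OFF was set beside 2OFF, 7OFF and group 12 to place its levels. Against 2OFF, 505 genes were higher (2.84%) and 702 lower (3.95%), together 6.79%. Against 7OFF these were 896 (5.04%) and 538 (3.02%), together 8.06%, and against group 12 1685 (9.47%) and 1414 (7.95%), together 17.4%. All of these use the same 3OFF libraries, so the counts are not independent. Single genes named from them were not refitted with libraries left out. Called genes against 2OFF fell to 0 and 0 without 2OFF replicate 2 or without 3OFF replicate 3, and to 20 and 50 without 3OFF replicate 2. In the plot of gene levels by library, 2OFF replicate 2 often lay near 12ON.

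Of 42 mitosis genes 27 were lower in 3OFF than in 2OFF, 1 was lower than in 7OFF although the list's median against 7OFF was 0.97, and none was called against group 12 by edgeR (median 0.23). Hmmr, at 4.15, 3.05 and 2.24 CPM in group 12, lay at 12.3, 23.3 and 5.02 CPM in 2OFF and 1.47, 1.56 and 2.09 CPM in 7OFF. Its log2 fold change against 2OFF was -2.38 ± 0.45, adjusted p = 0.0146. For canonical MYC targets the counts were 14 lower against 2OFF, 4 higher against 7OFF, and 11 higher with 3 lower against group 12. Ribosome assembly genes were higher than in group 12 in 20 of 47 and lower in none, and ribosomal protein genes in 43 of 44 (median 0.53). Rpl18 lay at 165, 210.1 and 175 CPM in group 12 and 219, 208 and 201 CPM in 7OFF (log2 fold change of 3OFF over group 12 0.53 ± 0.12, adjusted p = 0.00804).

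Perivenous genes were higher in 3OFF than in 2OFF in 10 of 25, and 1 was lower. Cyp2e1 lay at 658, 154 and 621 CPM in 2OFF, with replicate 2 at the 12ON level (log2 fold change 2.17 ± 0.47, adjusted p = 0.0219). Against 7OFF 10 of 25 sex-biased genes were lower in 3OFF, and none was higher. Mup7, another of the near-identical Mup genes, lay at 8853, 429 and 272 CPM in 7OFF and 33.0, 59.4 and 15.6 CPM in 3OFF (log2 fold change -6.47 ± 1.41, adjusted p = 0.0125). Elovl3, which lengthens fatty acids, changed by -6.83 in the same comparison. By the naming rule, Slco1a1, Cyp2a4, Inf2 and Mup3 were the highest and Dlk1, Bex1, Styk1 and Gipc2 the lowest against 2OFF. Inf2, a formin that also acts at mitochondria, lay at 312, 794 and 594 CPM in 3OFF and 69.8, 87.0 and 72.6 CPM in 2OFF (2.89 ± 0.48, adjusted p = 0.0116). The highest against 7OFF were H19 and 3 small RNA genes lying within it (Mir675, Gm27483 and Gm27786), whose reads cannot be told apart from those of H19.

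Against group 12, the highest genes included Igf2, Gm27786 and Igf2os, an antisense gene that shares 1.84% of its exon bases with Igf2. Only reads in those shared bases cannot be told apart without strand. The lowest were Slc34a2, a phosphate carrier (-5.59), Saa2, an acute phase serum amyloid, Derl3, of protein disposal (-5.06), and Mup7 (-4.50). Saa2 lay at 144, 229 and 27.3 CPM in 3OFF and 2464, 12398 and 931 CPM in group 12 (log2 fold change -5.30 ± 1.43, adjusted p = 0.0195). Of 29 unfolded protein response genes 16 were lower than in group 12 and none higher (median -0.64).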

How the data were processed

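RNA from 18 mouse livers (6 groups of 3 mice) was read as single reads of 50 bases after poly-A selection. The authors deposited raw gene counts, made with featureCounts 1.5.0-p1 on Ensembl 82 (GRCm38), per the file headers, where a read overlapping several genes by at least 10 bases counts for each, with no use of strand. Trim Galore, TopHat2 and mm10 are named in the submitters' processing notes. Groups came from the labels. All 18 libraries entered 1 fit of edgeR 4.0.16 (R 4.3.3) with TMM scaling, filterByExpr at a minimum count of 10 and a quasi-likelihood test with Benjamini-Hochberg adjustment, which left 17789 genes and 12 residual degrees of freedom. An adjusted p under 0.05 was a call, standard errors are the fold change over the root of F, and the script was tested on simulated data. The labels call the samples separate mice. They give no pairing of mice, so the main fit used no block. Same-numbered 3OFF and 12ON libraries deviated with correlations of -0.0346, -0.158 and -0.18. For 3OFF and group 12 these were 0.00794, 0.177 and 0.263. With 3 libraries a group such values cannot show whether numbers pair mice.

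The genes and lists were chosen with earlier results of these data known. Named genes were the 12 highest and 12 lowest fold changes among called genes averaging 4 CPM or more whose groups did not overlap, up to 4 members of each list and direction with the smallest p, Myc and Esr1, and 4 genes each way in the other comparisons. Apex1, Eif4a1, Exosc5, Npm1, Cad, Fbl, Odc1, Cdk1, Ttr, H19, Igf2, Arntl, Clec4f, S100a8, Col1a1, Lrat and Krt19 lie outside that rule and were named for their function or promoter after values were seen. Alternatives were other scalings (RLE, upper quartile), filters, DESeq2 1.42.0, a 2-group fit, a replicate block, a 1.5-fold test, Xist or mitochondrial terms and fits with libraries left out. A few genes that the naming rule chose are not reported here.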

Additional observations from a re-analysis of the deposited data

Results flagged for a closer look

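The change from 12ON differed between time points for many genes, by a test of the difference itself, which is 3OFF against the other group in the same edgeR fit. It was called for 1207 genes between 3OFF and 2OFF (505 higher and 702 lower in 3OFF) and for 1434 genes between 3OFF and 7OFF (896 and 538). The first count was 0 without 2OFF replicate 2 and also without 3OFF replicate 3.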

How the results depend on the processing

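For 3OFF against 12ON, the 1.5-fold test left 280 higher and 686 lower genes, and the fit without the high-Xist library of each group 844 and 1446. With the replicate block 2879 and 3114 were called. Leaving out 1 library at a time gave 1528 to 2474 higher and 2180 to 2803 lower. Other scalings, filters, DESeq2 and covariate terms kept both counts within 1.5 times.

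For 3OFF against 2OFF, DESeq2 called 1001 and 1238, the 2 groups alone 1 and 0, the 1.5-fold test 0 and 0, the mitochondrial term 283 higher, the fit without the high-Xist libraries 3 and 11, the replicate block 741 and 854, and fits with 1 library left out 0 to 767 and 0 to 1030. At an unadjusted p under 0.05 edgeR gave 4476 genes there. For 3OFF against 7OFF, no filter left 337 lower, DESeq2 956 lower, the 2 groups alone 231 and 42, the 1.5-fold test 50 and 10, the mitochondrial term 520 and 181, and 1 library left out 397 to 908 and 181 to 591. For 3OFF against group 12, the 2 groups alone gave 1029 and 859, the 1.5-fold test 199 and 122, the mitochondrial term 491 and 240, the fit without the high-Xist libraries 1028 and 858, and 1 library left out 1044 to 1300 and 743 to 1237. The causes were not tested, and the fits that leave libraries out also hold fewer samples.

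Among named genes, 12 fold changes reversed, none of a called gene. Without the high-Xist libraries Myc was -0.0466, Xist 0.24 and Igf2 0.11. With the replicate block Ddx3y was -0.34. With 1 library left out, Mmp9 ran from -0.35 (without 3OFF replicate 1) to 0.81, Ddx3y from -0.23 (without 12ON replicate 2; -0.12 without 3OFF replicate 2) to 0.947, Xist from -7.98 to 7.85 (without 12ON replicate 2; 0.21 without 3OFF replicate 1 or 2), Lrat from -0.12 to 0.0239 (without 3OFF replicate 2) and Igf2 from -0.55 to 0.28 (without 3OFF replicate 3). Of the other refits of named genes, 4785 kept direction and side of the threshold, 547 lost the call and 6 gained it.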
